A study of Saccharomyces cerevisiae with 4 samples.

Results

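The 33 genes described here encode subunits of the yeast proteasome and RPN4, the transcription factor that drives them. The rule that picks them uses gene names and no measured value, but the set was proposed with earlier results of these data known: the 14 genes of the 20S core particle, 18 genes of the 19S regulatory particle and RPN4 (YDL020C), out of 6211 open reading frames (ORFs) in the deposited table. All 33 were in the table, 31 of them with a value on 4 arrays and 2, RPN1 (YHR027C) and RPN4, with values on 2 arrays.

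The proteasome degrades proteins that carry ubiquitin chains. Its core is a barrel of alpha and beta rings with the proteolytic sites inside, and the regulatory particle that caps it binds ubiquitin, removes it and unfolds the substrate with a ring of ATPases. In yeast the subunit genes are transcribed together under Rpn4, which binds a shared element in their promoters. Rpn4 is itself a short-lived substrate of the proteasome, so less proteasome activity gives more Rpn4 and more subunit transcripts. Oxidative and drug stress reach this loop through Yap1, Pdr1, Pdr3 and Hsf1, which act on the RPN4 promoter.

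The arrays compared BY4741, a MATa laboratory strain of baker's yeast carrying his3Δ1, leu2Δ0, LYS2, met15Δ0 and ura3Δ0, after 1 h with b-lapachone or with its vehicle. b-Lapachone is a quinone that the series' title calls DNA damaging. Cultures of 50 ml in rich medium (YPD) at 28 °C were in log phase, at an absorbance of 0.6, when b-lapachone was added to 10 µg/ml in DMSO, or DMSO alone to 1%. Each of the 4 arrays set treated against vehicle RNA, and the design text calls them biological replicates: replicates 1 and 3 had the treated RNA in Cy3, and on replicates 2 and 4 the dyes were swapped to Cy5.

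Values are taken as log2 ratios, so that -0.32 is a level 1.25-fold lower, and as b-lapachone over vehicle, the likely direction. Neither the log base nor the direction is stated in the sources used here, and the opposite direction would turn every sign below. The arrays held values for 4819 to 5534 ORFs, and the 5112 genes present on 3 or 4 arrays were tested against 0 with limma. A gene is called changed where its Benjamini-Hochberg adjusted p over all 5112 genes was below 0.05. Ratios give no level of a transcript: URA3, which this strain lacks, still carried values on 4 arrays, as did HIS3, while LEU2 and MET15 carried none. In bulk RNA, fewer cells holding a transcript and less of it per cell cannot be told apart. The number of arrays limits the precision, with a median standard error of 0.109 over all genes tested.

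None of the 31 proteasome genes tested was called changed after 1 h with b-lapachone (0 of 31 by limma), against 155 of 5112 genes (3.03%) in either direction, with 0.959% called lower and 2.07% called higher. An unadjusted p under 0.05 (limma) was found for 4 of the 31, all with means below 0. Of all 5112 genes tested, 441 had such a p with a mean below 0 and 519 with a mean above 0, together 18.8%. Shifts were small and mostly downward: 26 of the 31 means lay below 0, or 83.9%, where 53.2% of all genes tested did. The median of the 31 means was -0.11, and that of all genes tested was -0.01. The means ran from -0.32 for PUP1 to 0.10 for RPN11, so even the extremes were 1.25-fold lower and 1.07-fold higher. A lower placing of proteasome genes as a group was already known from these arrays, so these counts are a description of it and no independent support.

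**Figure D1:**
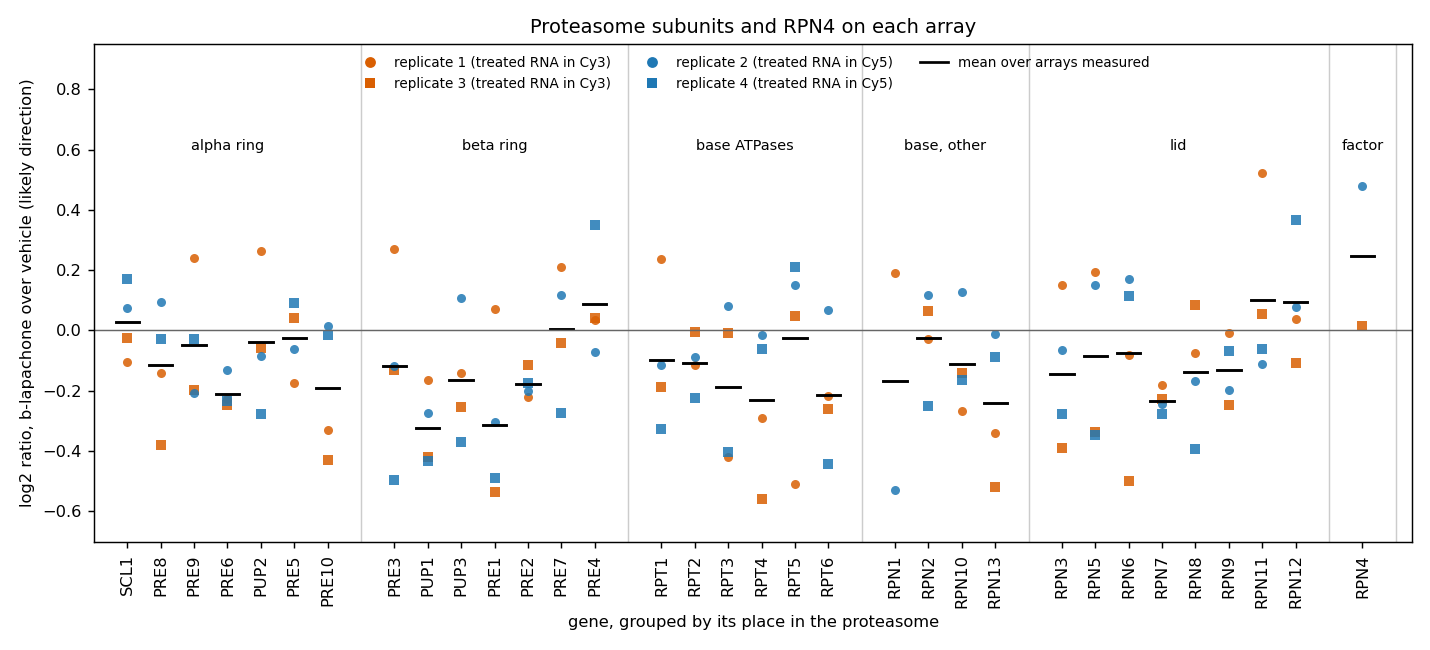
The log2 ratio of each of the 33 genes (vertical axis) on every array that measured it, grouped by place in the proteasome (horizontal axis). Orange marks treated RNA in Cy3 and blue treated RNA in Cy5, circles are replicates 1 and 2, squares replicates 3 and 4, and bars are means. Single values of the 31 genes tested lie between -0.56 and 0.52, and most genes have arrays on both sides of 0.

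In the outer alpha rings, through which substrates enter, 6 of 7 means lay below 0 and the median was -0.05. PRE6 (YOL038W), the alpha4 subunit, had -0.23, -0.13, -0.25 and -0.24 on replicates 1 to 4. All 4 arrays lay below 0, with a mean of -0.21 ± 0.05 (SD, n = 4) that was not called (limma, adjusted p = 0.265). PRE10 (YOR362C), alpha7, had -0.33, 0.01, -0.43 and -0.02, low on both arrays with treated RNA in Cy3 and at about 0 on the other two. PRE8 (YML092C), alpha2, showed the same split, with -0.14 on replicate 1 and -0.38 on replicate 3, but 0.09 on replicate 2 and -0.03 on replicate 4. PRE9 (YGR135W), alpha3, the one core subunit that yeast can live without, stood at -0.05 ± 0.21, with 0.24 on replicate 1 and values below 0 on the other arrays. PUP2 (YGR253C), alpha5, resembled it, at -0.04 ± 0.22 with 0.26 on replicate 1. PRE5 (YMR314W), alpha6, and SCL1 (YGL011C), alpha1, were at -0.03 ± 0.12 and 0.03 ± 0.12, SCL1 being the alpha gene with a mean above 0.

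The inner beta rings, which hold the proteolytic sites, had 5 of 7 means below 0 and a median of -0.16, the lowest median of the 5 subgroups. PUP1 (YOR157C), the beta2 subunit with the trypsin-like site, had -0.16, -0.27, -0.42 and -0.43 on replicates 1 to 4. It was low on every array, and its mean of -0.32 ± 0.13 (SD, n = 4) was the lowest of all subunit genes and lower than all but 3.81% of the genes tested, yet it was not called (limma, adjusted p = 0.115). PRE1 (YER012W), beta4, had 0.07, -0.30, -0.53 and -0.49. Replicate 1 alone lay above 0, and the mean of -0.31 ± 0.28 did not pass (adjusted p = 0.176). PRE1 was also not called without replicate 2, 3 or 4 (limma, adjusted p = 0.222, 0.563 and 0.441). Without replicate 1 the mean was -0.44 and PRE1 was called (limma, Benjamini-Hochberg adjusted p = 0.0355), and with arrays weighted by their quality both PRE1 and PUP1 were called (adjusted p = 0.0488 and 0.0474). Over all alternatives the adjusted p ran from 0.0355 to 1 for PRE1 and from 0.0474 to 1 for PUP1 (limma).

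The other beta subunits were closer to 0. PRE2 (YPR103W), beta5, with the chymotrypsin-like site, had -0.22, -0.20, -0.11 and -0.17, all below 0, and a mean of -0.18 ± 0.05 (limma, Benjamini-Hochberg adjusted p = 0.338). PRE3 (YJL001W), beta1, with the caspase-like site, ranged from 0.27 on replicate 1 to -0.50 on replicate 4 around a mean of -0.12 ± 0.31. The arrays of PRE3 thus disagreed in sign, with a mean of 0.07 where treated RNA carried Cy3 and -0.31 where it carried Cy5. Of the 31 genes tested, 16 were higher with treated RNA in Cy3, as PRE3 was, and 15 lower. PUP3 (YER094C), beta3, had a mean of -0.16 ± 0.20 with replicate 2 alone above 0. PRE7 (YBL041W), beta6, was at 0.00 ± 0.21, spread from 0.21 on replicate 1 to -0.27 on replicate 4. PRE4 (YFR050C), beta7, was the highest beta gene at 0.09 ± 0.18, with 0.35 on replicate 4.

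The 6 ATPases of the base, which form the ring that unfolds substrates, all had means below 0 (6 of 6), with a median of -0.15 and none called. RPT4 (YOR259C) had -0.29, -0.02, -0.56 and -0.06 on replicates 1 to 4, lower where treated RNA carried Cy3, and a mean of -0.23 ± 0.25. RPT6 (YGL048C) had -0.22, 0.07, -0.26 and -0.44 and a mean of -0.21 ± 0.21, with replicate 2 alone above 0. RPT3 (YDR394W), at -0.19 ± 0.26, was low on replicates 1 and 4 (-0.42 and -0.40) and at 0.08 and -0.01 on the other two. RPT2 (YDL007W), an ATPase that opens the gate of the core, was below 0 on all 4 arrays but by little, from -0.22 to 0.00 when rounded, with a mean of -0.11 ± 0.09. RPT1 (YKL145W) was at -0.10 ± 0.24. RPT5 (YOR117W) had the largest SD over arrays of the 31 genes, with values from -0.51 on replicate 1 to 0.21 on replicate 4 and a mean of -0.02 ± 0.33. The lowest adjusted p among the 6 ATPases was 0.296, for RPT4 (limma, Benjamini-Hochberg).

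Of the scaffold and ubiquitin-binding subunits of the base, RPN13 (YLR421C), a ubiquitin receptor, was lowest, with -0.34, -0.01, -0.52 and -0.09 on replicates 1 to 4. Its mean was -0.24 ± 0.23 (SD, n = 4; limma, Benjamini-Hochberg adjusted p = 0.271), and the arrays with treated RNA in Cy3 were the lower ones. RPN10 (YHR200W), the other receptor gene measured on 4 arrays, was at -0.11 ± 0.17 with replicate 2 above 0. RPN2 (YIL075C), a large scaffold protein, was at -0.02 ± 0.16. RPN1 (YHR027C), its relative that docks ubiquitin shuttles, was measured on replicates 1 and 2 alone, at 0.19 and -0.53. These disagree in sign, so no direction is given for RPN1.

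In the lid, the subcomplex that cuts ubiquitin off the substrate, 6 of 8 means lay below 0 and the median was -0.11. RPN7 (YPR108W) had -0.18, -0.24, -0.23 and -0.28, the tightest set of values of the 31 genes, with a mean of -0.23 ± 0.04 (SD, n = 4). It was not called either (limma, adjusted p = 0.214), with a standard error of 0.096 after limma pooled variances over genes. RPN9 (YDR427W) was below 0 on all arrays, at -0.13 ± 0.11. RPN3 (YER021W), RPN8 (YOR261C), RPN5 (YDL147W) and RPN6 (YDL097C) had means of -0.15 ± 0.24, -0.14 ± 0.20, -0.09 ± 0.30 and -0.07 ± 0.30, with arrays on both sides of 0. RPN11 (YFR004W), the metalloprotease that removes the ubiquitin chain, had the highest mean of the 31, 0.10 ± 0.29, and 0.52 on replicate 1 carried it. On the other arrays RPN11 was at -0.11, 0.05 and -0.06, and without replicate 1 its mean was -0.04. RPN12 (YFR052W) was at 0.09 ± 0.20, with 0.37 on replicate 4 and values from -0.11 to 0.08 on the rest.

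RPN4 had values on 2 arrays, 0.48 on replicate 2 and 0.02 on replicate 3, one of each dye orientation. Their mean of 0.25 ± 0.33 (SD, n = 2) was above the mean of each of the 31 subunit genes tested, but the arrays differed by more than the mean itself. RPN4 was not tested with the other genes. When genes measured on at least 2 arrays were admitted, it was not called (limma, adjusted p = 0.473), nor did RPN1 (adjusted p = 0.692). The median of the 31 subunit genes was -0.06 on replicate 2 and -0.19 on replicate 3. With no RPN4 value on the other arrays, no relation between RPN4 and the subunit genes is read from these.

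**Figure D2:**
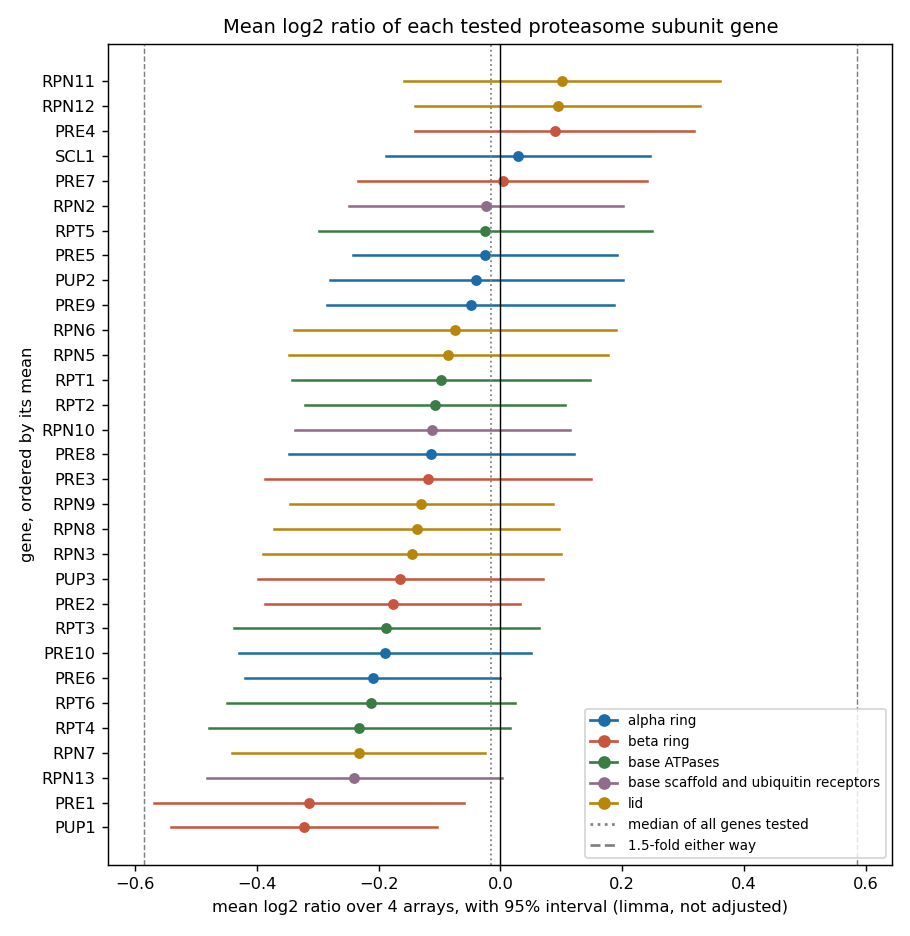
Mean log2 ratio of each of the 31 proteasome genes tested (horizontal axis, points) with its 95% interval from limma, ordered by mean (vertical axis) and coloured by subcomplex. The dotted line is the median of all genes tested, -0.01, and the dashed lines mark 1.5-fold either way, within which all 31 intervals lie. Intervals of 4584 of all 5112 genes tested lie within them too.

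The intervals show what changes these arrays leave room for. For each of the 31 genes tested, the 95% interval of the mean (limma, not adjusted for the number of genes) lay within 1.5-fold in either direction, from -0.57 for PRE1 to 0.36 for RPN11. The same held for 4584 of all 5112 genes tested, so this bound is common on these arrays. The interval lay wholly below 0 for 4 genes, PUP1, PRE1, RPN7 and PRE6, the same 4 with an unadjusted p under 0.05 (limma). Of all 5112 genes tested, 441 had such a p with a mean below 0. Arrays were also simulated with the real spread of each gene and with 200 of 5112 genes shifted. There the test recovered 48.7% of genes shifted by a log2 ratio of 0.5 and 2.4% of those shifted by 0.25. In that setting, shifts of 0.25 were seldom called one by one. On the real arrays 18.8% of genes had an unadjusted p under 0.05 (limma), so these recoveries may not carry over to them. Recovery with other numbers of shifted genes is not given here.

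The subunit genes differed little among themselves. The SD of the 31 means was 0.111, beside a median standard error of a single mean of 0.108 and an SD of 0.212 for the means of all genes tested. Core and regulatory particle lay together, with medians of -0.12 over 14 genes and -0.11 over 17. The order of the genes did not carry over from array to array: across the 31 genes, Pearson's r between pairs of arrays ran from -0.25 to 0.30, where it ran from 0.12 to 0.50 across the 4574 genes with 4 values. Genes on one array share its labelling and normalization, so these correlations are a description.

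On single arrays the median of the 31 genes was -0.11, -0.06, -0.19 and -0.22 on replicates 1 to 4, below 0 on each and below the median of all genes tested, which stayed between -0.02 and 0.00. Of the 31 genes, 20, 18, 25 and 25 lay below 0 on replicates 1 to 4. Below 0 on all 4 arrays were 8 of the 31, or 25.8% against 14.4% of all genes tested: PUP1, PRE2, PRE6, RPT2, RPT4, RPN7, RPN9 and RPN13. None lay above 0 on all arrays (0 of 31 against 12.9%). The subgroups did not keep one order. The beta rings were lowest on replicate 4, at -0.37, and above 0 on replicate 1, at 0.03, while the ATPases were at -0.25 on replicate 1 and 0.03 on replicate 2.

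**Figure D3:**
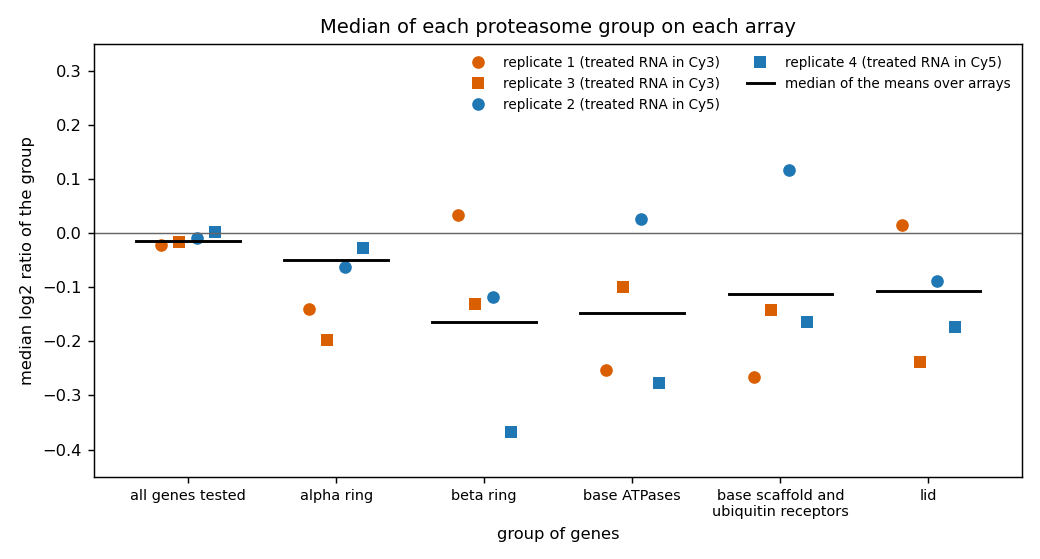
Median log2 ratio (vertical axis) of each subgroup of tested proteasome genes and of all genes tested (horizontal axis) on each array, with black bars for the median of the genes' means. Medians of all genes stay near 0, while those of the subgroups scatter from -0.37 to 0.12.

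Dye orientation was set against these values, because the table might hold a fixed ratio of the dyes, in which case a dye coefficient and not the mean would hold the treatment effect. Over all genes 2 of 5112 had a dye coefficient that passed (0.0391%; limma, Benjamini-Hochberg), and 9.76% had an unadjusted p under 0.05. None of the 31 proteasome genes passed (0 by either measure), and the lowest adjusted p was 0.528, for RPN6. The mean was higher on the arrays with treated RNA in Cy3 for 16 of the 31 genes and lower for 15. The gap between the orientations (Cy3 minus Cy5) ran from -0.43 for RPN6 to 0.38 for PRE3 and RPN11. Each orientation rests on 2 arrays, so this gap is less precise than a mean over 4 arrays.

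**Figure D4:**
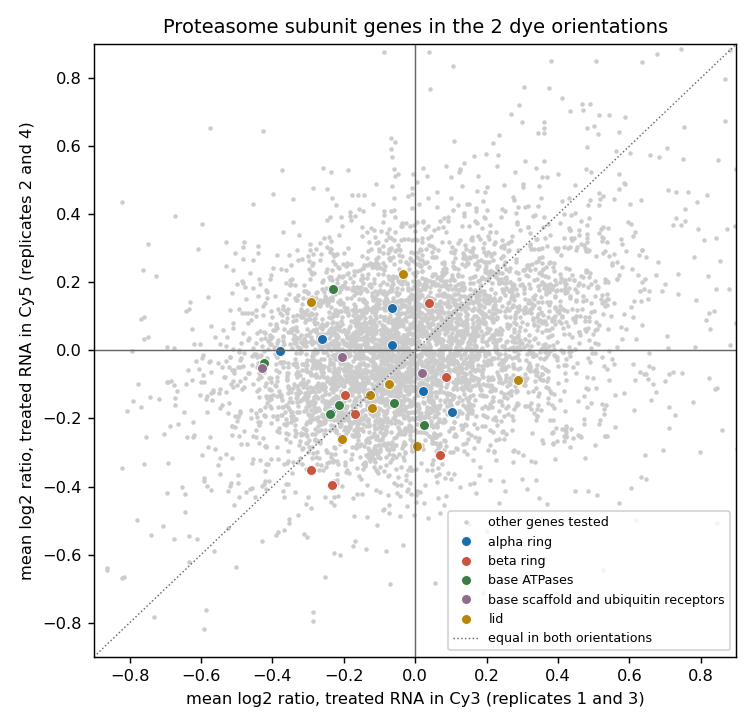
Mean log2 ratio of each gene on replicates 1 and 3, with treated RNA in Cy3 (horizontal axis), against that on replicates 2 and 4, with treated RNA in Cy5 (vertical axis), for proteasome genes (coloured by subcomplex) and the other genes tested (grey). PUP1, at -0.29 and -0.35, lies near the dotted line of equal values, and 53 genes lie outside the axes.

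Other genes of the pathway gave no called change either. Over all genes tested, limma called 3.03% and gave 18.8% an unadjusted p below 0.05. Of 13 assembly chaperones and partners of the proteasome tested, limma called 0 and gave 1 an unadjusted p below 0.05, 7 means lay below 0 and the median was -0.04. HSM3 (YBR272C), a chaperone that assembles the ATPase base, had the largest size, with -0.47, -0.12 and -0.66 on replicates 1 to 3. It was low on each array that measured it, at a mean of -0.42 ± 0.27 (SD, n = 3), and was not called (adjusted p = 0.127 by limma). UMP1 (YBR173C), which matures the core, was at -0.06 ± 0.20, and BLM10 (YFL007W), an alternative cap of the core, at 0.03 ± 0.12. PBA1 (YLR199C), a core chaperone named after its values were seen, was at 0.25 ± 0.33, carried by 0.72 on replicate 1. SEM1 (YDR363W-A), a small lid subunit, was not among the ORFs in the deposited table and so could not be analysed.

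Among 18 genes for ubiquitin conjugation and delivery limma called 0, and the median was -0.01. By limma 3 of the 18 had an unadjusted p below 0.05, against 18.8% of all genes tested. UBR2 (YLR024C), the ubiquitin ligase that marks Rpn4 for degradation, had the largest size, with 0.29, 0.54 and 0.17 on replicates 1 to 3. All lay above 0, and the mean of 0.33 ± 0.19 (SD, n = 3) was short of the threshold (limma, adjusted p = 0.178). MUB1 (YMR100W), the partner of Ubr2, was at -0.09 ± 0.24, with 0.26 on replicate 1 and values between -0.18 and -0.23 on the others. UBI4 (YLL039C), the stress-induced polyubiquitin gene, had 0.61, 0.46, 0.14 and 0.05, above 0 on every array, and a mean of 0.32 ± 0.27 (adjusted p = 0.164). UBA1 (YKL210W), which activates ubiquitin and was named after its values were seen, was at -0.29 ± 0.30. DDI1 (YER143W), a ubiquitin shuttle, was at -0.11 ± 0.20.

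Of 8 genes of Cdc48, the ATPase that extracts ubiquitinated proteins, and its partners, limma called 0, with a median of -0.03. By limma 0 of the 8 had an unadjusted p below 0.05, against 18.8% of all genes tested. CDC48 (YDL126C) itself was at -0.02 ± 0.17 and SHP1 (YBL058W), an adaptor with the largest size in the list, at -0.11 ± 0.20. Of the regulators that act on RPN4, YAP1 (YML007W) and PDR1 (YGL013C) were tested, at 0.12 ± 0.26 and 0.15 ± 0.39, and neither was called (limma, adjusted p = 0.631 and 0.591). YAP1 was at 0.50 on replicate 1 and at -0.05 or 0.00 on the others, and PDR1 was at -0.40 on replicate 2 and above 0 elsewhere. PDR3 and HSF1 carried no value on any array. MAG1 (YER142C), a DNA glycosylase gene that Rpn4 also drives, was at 0.08 ± 0.16.

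**Figure D5:**
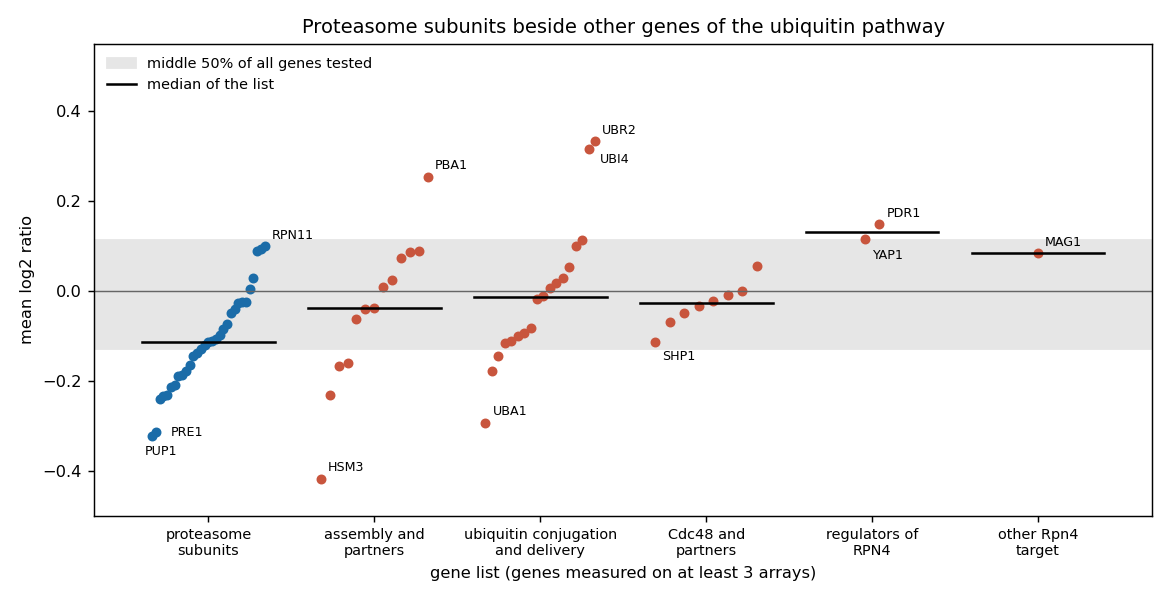
Mean log2 ratio (vertical axis) of each gene measured on at least 3 arrays in the proteasome and in 5 related lists (horizontal axis), with bars for list medians and a grey band for the middle 50% of all genes tested. The proteasome median, -0.11, lies near the lower edge of the band, and those of the assembly, ubiquitin and Cdc48 lists lie between -0.04 and -0.01.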

How the data were processed

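The authors deposited 1 value per ORF and array, read here as log2 ratios of the channels. Not given in the sources used here were scanner software, background correction, normalization, log base and direction. Column medians lay between -0.023 and 0.003, and all 6 pairs of arrays correlated above 0 across genes, as columns turned by treatment would, although a fixed ratio of the dyes can also give this. Entries written NULL or left empty were taken as missing.

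Genes with at least 3 values were tested in R 4.3.3 by limma 3.58.1, as a moderated two-sided test of the mean over arrays against 0. P-values were adjusted over all 5112 by the Benjamini-Hochberg method, with no further normalization. Errors are SDs over arrays. Symbols of the 80 listed genes in the table matched the R64 gene table. The procedure was tested on 20 simulated sets of arrays in which 200 of 5112 genes were shifted: 91% of shifts of 1 were found, and 3.46% of calls were false.

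The text names all 33 members, 13 fixed genes, and from each other list up to 4 called genes or the 1 of largest size. Members and lists were chosen with earlier results of these data known. Alternatives were a dye coefficient, centred, scaled, quantile-normalized or weighted arrays, 2 other filters on missing values, a robust prior, each gene's own variance, a 1.2-fold threshold and each array left out. Promoter motifs were not analysed here.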

Additional observations from a re-analysis of the deposited data

Results flagged for a closer look

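Of 41 named genes with a value on 4 arrays, 2 had 1 array far from the other three (chance alone marks about 1 gene in 20), both on replicate 1 and neither a subunit gene. MUB1 was at 0.262 there and at a mean of -0.21 over the other arrays. YAP1 was at 0.503 there and at a mean of -0.01 over the others.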

How the results depend on the processing

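Over all genes, 155 calls became 263 with array weights, 28 against a 1.2-fold threshold and 0 with each gene's own variance (limma's fit without its prior, 690 at an unadjusted p below 0.05). Leaving out 1 array gave 27 calls (without replicate 3) to 179 (without replicate 1), with 67 without replicate 4. Among the 31 proteasome genes tested, 9 of 10 alternatives on all 4 arrays called 0, array weights called 2 (PUP1 and PRE1), and leaving out 1 array gave 0 to 1. The cause was not tested. The median of the 31 means stayed below 0 under all alternatives, between -0.16 and -0.09. The sign of the mean held in 20 of the 31 under every alternative run and turned in 11, none of them called in the reported test. RPT5 turned to 0.028 with scaled, 0.0165 with quantile-normalized and 0.049 with weighted arrays. PRE7 turned to -0.0122 with quantile normalization and -0.043 with weights, and PRE5 to 0.0045 with weights. Next come the lowest and highest means over the fits that each left out 1 array. They were -0.018 and 0.074 for SCL1, -0.14 and 0.0044 for PRE9, -0.14 and 0.040 for PUP2, and -0.065 and 0.0235 for PRE5. For PRE3 they were -0.25 and 0.0067, for PRE7 -0.066 and 0.096, for RPT5 -0.10 and 0.14, and for RPN2 -0.071 and 0.051. For RPN5 they were -0.18 and 0.0015, for RPN6 -0.16 and 0.068, and for RPN11 -0.0398 and 0.17. Of the other genes, UMP1 had -0.14 and 0.022, BLM10 -0.0106 and 0.064, CDC48 -0.081 and 0.043, and YAP1 -0.014 and 0.17. The dye coefficient was called for 2 to 3 genes.

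Only ratios were given, so the signal over background behind each value is unknown here. No paired analysis was possible because each array already holds both RNAs and the 4 arrays form 1 group.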

Other observations

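Sorted by chromosome, a grouping noticed after the values were seen and therefore given without a test, 3 of the 5 proteasome genes with a mean above 0 lay on chromosome VI: RPN11, PRE4 and RPN12. Their median was 0.09, and that of the 96 genes tested on VI was 0.03. PRE4 and RPN12 are neighbours of RET2, a coatomer gene, whose mean was -0.23 ± 0.13 (limma, Benjamini-Hochberg adjusted p = 0.237). On chromosome XV all 6 proteasome genes, PRE6, RPT5, PUP1, RPT4, RPN8 and PRE10, had means below 0, with a median of -0.20 beside -0.04 for 422 genes.

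Of the 31 proteasome genes tested, 17 had a divergently transcribed, protein-coding neighbour upstream that was tested too. The means of 10 of these 17 neighbours lay below 0, their median was -0.02, and 0 were called by limma. Of all genes tested, 53.2% had means below 0, the median was -0.01 and limma called 3.03%.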
